A study of Mus musculus with 21 samples.

Results

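The genes described here are 45 transcripts of the cell cycle, DNA replication and chromosome condensation machinery, read in endothelial cells taken from mouse mammary tumours. They were fixed by symbol: 9 genes of replication licensing and the helicase, 5 of the replication fork and nucleotide supply, 8 cyclins, Cdk1 and transcription factors, 9 mitotic kinases, checkpoint and ubiquitin ligase genes, 6 of the spindle and kinetochore, 2 of the chromosome surface and topology, and 6 of condensin. All 45 were found among the 45706 genes of the deposited table, and all 45 passed the filter on low values, which kept the 13503 genes that reached 1 TPM in 10 or more of the 21 libraries. TPM corrects a read count for transcript length and gives every library the same total, so levels of different genes can be set side by side.

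The 10 KO samples came from adult Shb iECKO mice (Shb flox/flox; Cdh5-CreERt2), in which the Cdh5 promoter drives a tamoxifen-activated Cre in endothelium, and the 11 WT samples came from wild-type adults. Both groups received tamoxifen before E0771.lmb tumours, a mouse mammary carcinoma line, were grown, and mice were killed on days 14 to 16. CD45+ cells were handled with magnetic beads first and CD31+ cells were then sorted by flow cytometry. The protocol also names a Vav1-cre line, Shb ICKO, to which no sample here is assigned. The study states that the KO samples came from 8 tumours and the WT samples from 9, in 4 experiments, so some samples share a tumour, and the labels do not say which. P-values over samples are therefore too small by an unknown amount.

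Replication is licensed in G1, when the Mcm helicase is loaded at origins with Cdc6 and Cdt1, and starts when cyclin-dependent kinases and the Gins complex activate it. Cyclin B with Cdk1 then opens mitosis, condensin compacts the chromosomes, and the anaphase-promoting complex ends it by marking cyclins and securin for destruction. In the vessels of a tumour, endothelial cells re-enter this cycle from quiescence, and Mki67 and Top2a are widely read as labels of cycling cells.

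A few libraries stood apart before any comparison. KO replicate 2 of experiment 4 had a summed level of 1446 TPM over 10 endothelial markers and 140 TPM over 7 markers of tumour epithelium, and WT replicate 2 of experiment 4 had 490 TPM of the endothelial and 272 TPM of the epithelial markers. In the other libraries the endothelial sum was at least 3014 TPM. Of these, WT replicate 2 of experiment 3 had the most TPM of the epithelial markers, 143. Genes listed above 0 numbered 12178 to 19022 in KO libraries and 12550 to 20526 in WT libraries, and the 4 libraries with the fewest were KO replicates 3a and 3b of experiment 2, KO replicate 2 of experiment 4 and WT replicate 2 of experiment 1. KO replicates 3a and 3b are a pair of columns that share a header. 1 of them may belong to experiment 4, where a KO sample has no column of its own. Replicate 3b is written with 6 decimals, as are the columns of experiment 4, and 3a with 2. Both were kept in experiment 2, as their header says. Shb, the deleted gene, had 6.00 TPM in the lowest, 13.7 in the median and 52.7 in the highest KO library, against 17.2, 31.8 and 74.3 TPM in WT libraries. The groups overlapped, and the difference was -0.91 on the log2(TPM + 1) scale with an exact two-sided permutation p of 0.0223 within experiments. Shb averaged 44.5 TPM in KO and 42.1 TPM in WT in experiment 1. In experiment 3 it averaged 26.7 TPM in KO and 25.0 TPM in WT. Its mean TPM, a scale other than that of the test, was thus lower in KO in experiments 2 and 4 alone. Its p was 0.227 without experiment 2 and 0.165 without experiment 4.

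Promoters of the members shared sequence letters that the choice of genes did not use. RefSeq promoters of GRCm38.p6, from 250 bases before to 50 bases after the start, were matched for 37 of the 45 members. Letters of 3 elements known from cell cycle promoters were searched on both strands: the cell cycle homology region CHR (TTTGAA or TTTAAA), which is bound by the DREAM and MuvB complexes, the CCAAT box (CCAAT), bound by NF-Y, and an E2F-type site (TTCCCGC or TTGGCGC). The 4 promoters below belong to members with the smallest p of KO against WT in their role, and capitals mark the letters matched on either strand, with overlapping matches run together.
Mcm3: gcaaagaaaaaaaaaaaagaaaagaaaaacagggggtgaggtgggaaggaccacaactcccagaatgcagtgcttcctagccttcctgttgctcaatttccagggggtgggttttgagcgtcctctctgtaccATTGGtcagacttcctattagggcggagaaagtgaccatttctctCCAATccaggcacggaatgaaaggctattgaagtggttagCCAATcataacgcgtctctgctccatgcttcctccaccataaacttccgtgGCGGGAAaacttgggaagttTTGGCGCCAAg
Ncaph: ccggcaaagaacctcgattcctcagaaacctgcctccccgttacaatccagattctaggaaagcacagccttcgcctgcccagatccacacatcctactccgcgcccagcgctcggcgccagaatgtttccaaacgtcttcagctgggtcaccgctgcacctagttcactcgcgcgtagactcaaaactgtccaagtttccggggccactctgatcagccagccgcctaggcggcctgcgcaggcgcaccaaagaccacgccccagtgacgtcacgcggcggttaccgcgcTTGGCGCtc
Ube2c: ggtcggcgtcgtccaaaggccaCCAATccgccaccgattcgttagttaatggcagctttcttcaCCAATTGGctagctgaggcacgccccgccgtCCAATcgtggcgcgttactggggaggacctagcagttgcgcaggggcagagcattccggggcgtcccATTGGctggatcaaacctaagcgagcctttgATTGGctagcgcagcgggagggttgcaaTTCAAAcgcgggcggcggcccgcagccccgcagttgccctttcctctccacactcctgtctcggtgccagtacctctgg
Ccnb1: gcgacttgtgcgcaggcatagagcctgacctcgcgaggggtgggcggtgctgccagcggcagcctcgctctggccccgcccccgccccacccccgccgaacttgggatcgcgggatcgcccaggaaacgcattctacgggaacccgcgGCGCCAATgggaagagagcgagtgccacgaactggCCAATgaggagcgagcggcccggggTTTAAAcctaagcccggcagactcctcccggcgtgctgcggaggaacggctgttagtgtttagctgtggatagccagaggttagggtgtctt
The Mcm3 window lies at chr1:20820263-20820562 on the minus strand, the Ncaph window at chr2:127133905-127134204 on the minus strand, the Ube2c window at chr2:164769679-164769978 on the plus strand and the Ccnb1 window at chr13:100786437-100786736 on the minus strand. The Mcm3 promoter held 3 CCAAT matches and 3 E2F-type matches, 2 of which overlap in a palindrome near its end. The Ube2c promoter held 6 CCAAT matches and 1 CHR match and no E2F-type match. The Ccnb1 promoter held 2 CCAAT matches, 1 of them overlapping its E2F-type match, and 1 CHR match. The Ncaph promoter held only a single E2F-type match.

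Over the 37 members with a promoter, CHR letters were found in 26 (70.3%), against 18.8% of the 9241 tested genes with a promoter in the table and 27.8% of all 27018 genes in it. CCAAT was found in 28 members (75.7%), against 38.9% and 37.9%, and an E2F-type match in 14 members (37.8%), against 12.8% and 6.93%. CHR and CCAAT together were found in 22 members (59.5%), against 7.63% and 10.9%. The shares varied by role. E2F-type letters were in 6 of 7 licensing and helicase promoters and 4 of 5 condensin promoters, and in 0 of 8 promoters of mitotic kinases and checkpoint genes and 0 of 5 of spindle genes. CHR letters were in 7 of the 8 mitotic kinase and checkpoint promoters and in all 5 of the spindle genes, but in 2 of 7 licensing promoters. Other roles held both kinds: CHR letters were in 4 of 5 condensin promoters too, the cyclin and Cdk1 group had CHR letters in 4 of 5 and E2F-type letters in 2 of 5, and the fork genes had CHR letters in 2 of 5 and E2F-type letters in 1 of 5. These are matches of letters in one window, with no test.

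The members were expressed at a moderate level in these cells. Their mean over all libraries ran from 3.81 TPM for Gins2, a subunit of the helicase-activating Gins complex, to 134 TPM for Pcna, the sliding clamp of the polymerases. The median member had 21.8 TPM, against 19.0 TPM for the median gene that passed the filter. In all, 40 of 45 members averaged at least 10 TPM, and 5 averaged at least 50 TPM: Pcna, the condensin ATPase Smc4 with 78.6 TPM, the topoisomerase Top2a with 72.9 TPM, the condensin subunit Ncapd2 with 66.9 TPM and Cdk1 with 54.4 TPM. A value above 0 in every library was found for 40 members. The other 5 were listed at 0 somewhere: Ccnb2, Aurka and Ube2c in 1 KO library each, Gins2 in 2 WT libraries and Ncapg in 1 WT library.

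The members tended to be high or low together within a library. The mean log2(TPM + 1) of the 45 genes was 3.19 in the lowest, 4.29 in the median and 5.04 in the highest KO library, against 3.58, 4.69 and 5.24 in WT libraries. The groups overlapped over most of their range, with means of 4.22 ± 0.50 over the 10 KO libraries and 4.54 ± 0.50 over the 11 WT libraries (SD). The highest library was WT replicate 2 of experiment 3, where 42 members lay above their own median, followed by WT replicate 2 of experiment 4 with 40. KO replicate 1 of experiment 3 came next, with a mean of 5.04 and 43 members above their own median. The lowest was KO replicate 2 of experiment 4, where 18 members had their lowest value and 2 lay above their own median. In that library the 20 most abundant genes took 71.1% of the TPM, the largest share of any library. Its median gene that passed the filter had a log2(TPM + 1) of 2.95, against 3.81 to 4.54 in the other libraries. Measured against that median, its 45 genes lay at 0.24, above the KO median of 0.031. On this scale the lowest libraries were WT replicate 1 of experiment 4, at -0.30, and KO replicate 2 of experiment 2, at -0.26, and the highest was WT replicate 2 of experiment 4, at 1.34. The mean on this scale was 0.093 ± 0.31 over KO libraries and 0.34 ± 0.48 over WT libraries (SD).

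**Figure D1:**
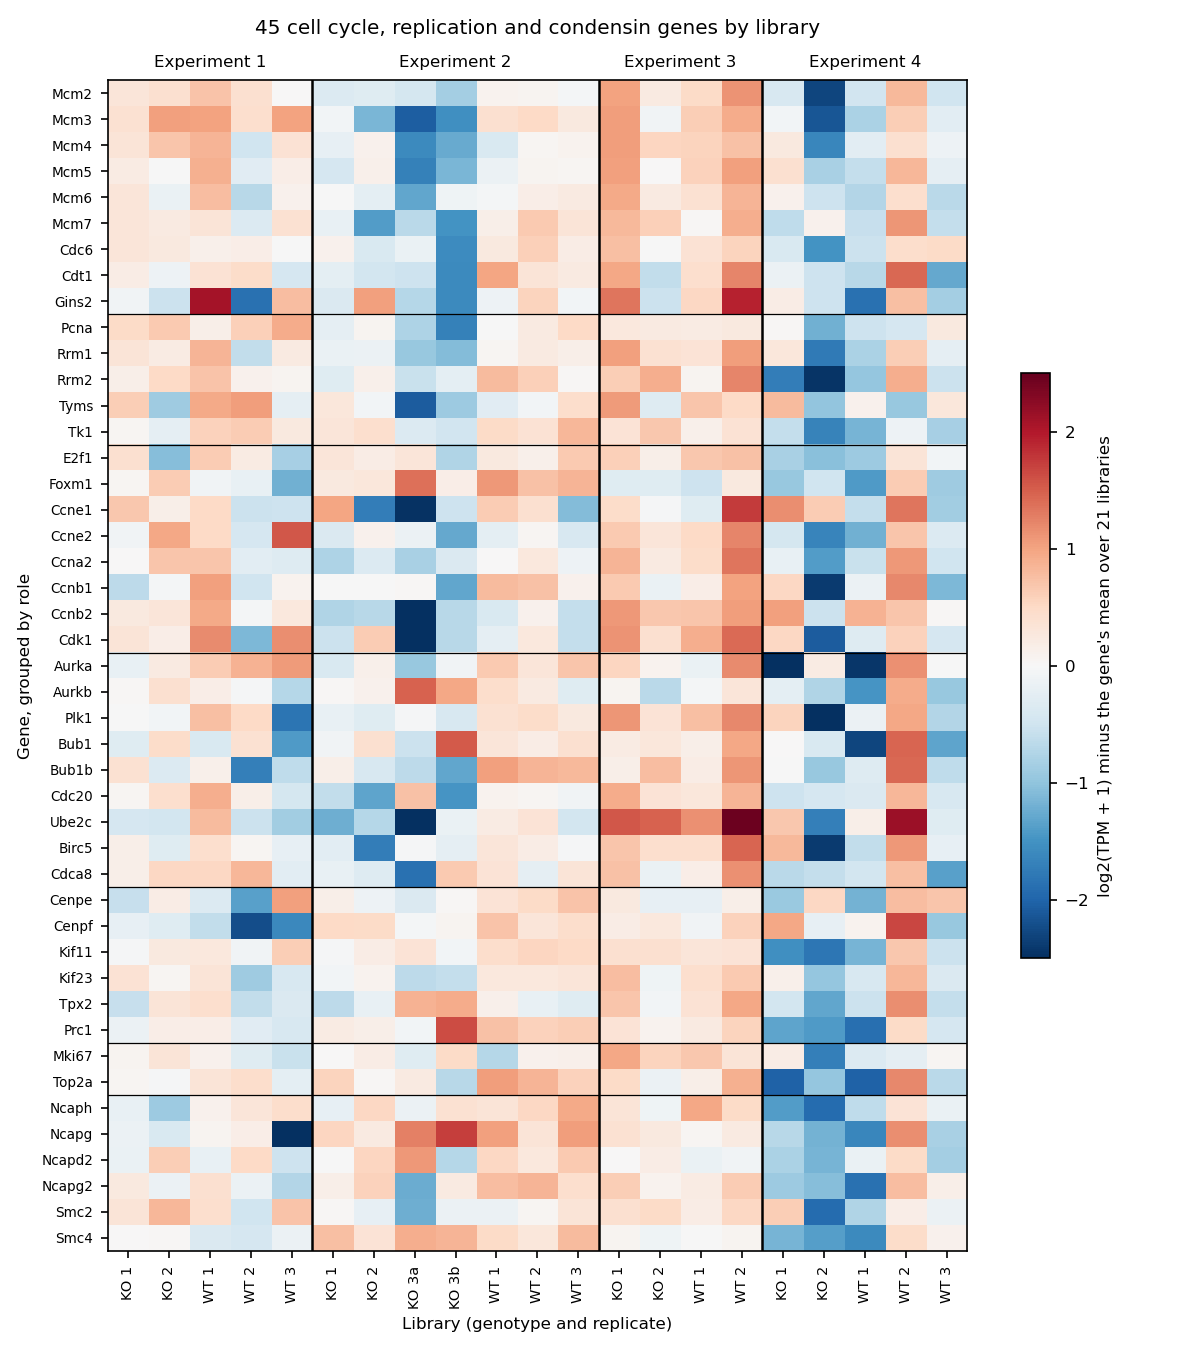
Each row is 1 of the 45 genes, grouped by role, and each column 1 of the 21 libraries, grouped by experiment with KO left of WT; colour gives log2(TPM + 1) minus the gene's mean over all libraries, and values beyond the ends of the scale take the end colour. Columns tend to be red or blue as a whole. Counted against each gene's median, not the mean used for colour, WT replicate 2 of experiment 3 had 42 genes above. On the same count, KO replicate 2 of experiment 4 had 2 above. In the latter library the median gene that passed the filter is low too.

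In bulk samples, fewer cycling cells and less RNA per cycling cell cannot be told apart, and RNA of cycling cells of another type would be read as well. Markers of other cells differed between libraries too, with no relation to the 45 genes computed. Over 8 macrophage and monocyte markers the summed level was 23.5 to 246 TPM in KO libraries and 42.9 to 6020 TPM in WT libraries, and all 8 markers had a negative difference, with a median of -1.72 and none past the threshold. The library highest in the 45 genes, WT replicate 2 of experiment 3, was also the highest in these markers, with 6020 TPM, and in leukocyte markers, with 1588 TPM. WT replicate 2 of experiment 4, the second highest, had 708 TPM of the macrophage markers. KO replicate 2 of experiment 4, the lowest, had 246 TPM, the most of any KO library. These libraries were also the highest in tumour epithelium markers. WT replicate 2 of experiment 4 had 272 TPM, WT replicate 2 of experiment 3 143 TPM and KO replicate 2 of experiment 4 140 TPM. The 10 endothelial markers went the other way, with 9 higher in KO, a median difference of 0.14 and none past the threshold. All 6 leukocyte markers, 4 of 4 fibroblast markers that passed the filter and 5 of 5 pericyte markers that passed it were lower in KO, with medians of -1.36, -1.31 and -1.04. Of the T and NK cell markers 1 of 5 passed the filter, with a difference of -0.49. Of the tumour epithelium markers 1 of 7 passed, with a difference of -1.55, and of the B cell markers 0 of 4. No marker of any list was at 0 in all libraries. The part of these cells in the differences below was not tested.

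**Figure D2:**
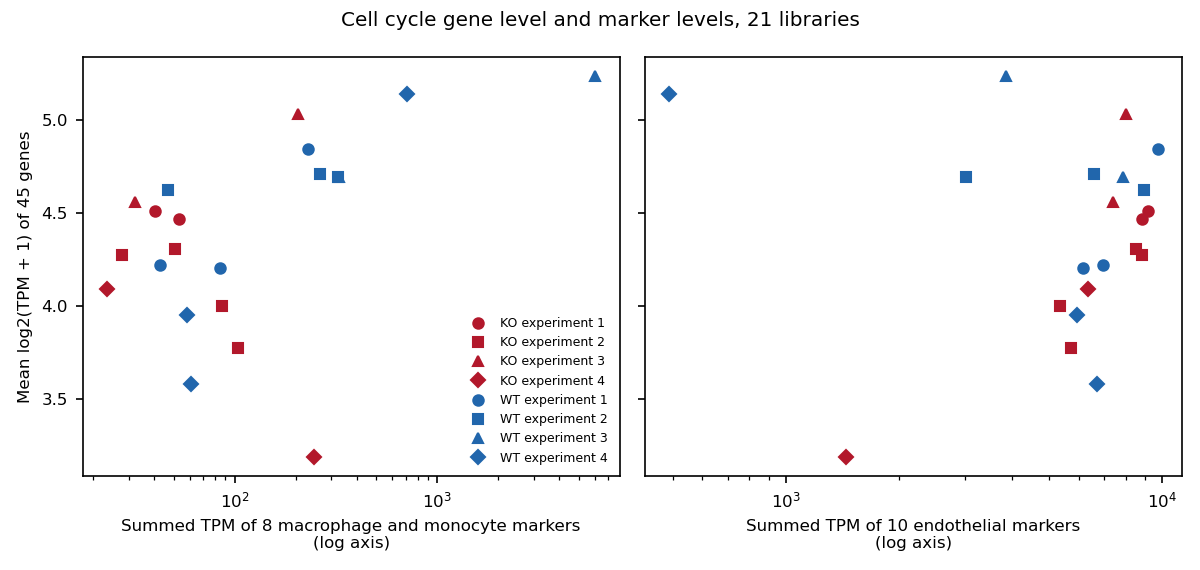
Each point is 1 library, KO in red and WT in blue, with a shape for each experiment; the y axis is the mean log2(TPM + 1) of the 45 genes and the x axes are summed TPM of 8 macrophage and monocyte markers (left) and 10 endothelial markers (right), on log axes. The 2 highest WT libraries lie at 6020 and 708 TPM of the macrophage markers, and the lowest library, a KO library of experiment 4, lies at 1446 TPM of the endothelial markers.

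The main comparison asked whether these genes differ between KO and WT endothelium within experiments. No member passed limma's test with Benjamini-Hochberg adjustment over 13503 genes, and adjusted p-values of members ran from 0.820 to 0.999. Over all genes 1 passed, which is 0.00741% of those tested, so the design made almost no calls at all. At an unadjusted p under 0.05, 3 members differed (6.67% of 45), against 5.88% of all genes. All 3 were lower in KO, against 4.93% of all genes lower at that p, and 0 were higher, against 0.948%. These 3 were Ncaph, Mcm3 and Rrm2. The share of 6.67% is near the background, and the count moved both ways with the libraries used. It was 8 (17.8%) without WT replicate 1 of experiment 3, against 6.63% of all genes. It was 7 (15.6%) without KO replicate 1 of experiment 3 or 4, or WT replicate 2 or 3 of experiment 1, against 6.31% to 7.3%. Leaving out KO replicate 1 of experiment 1 gave 5 (11.1%, against 6.53%). The count was 6 (13.3%) without WT replicate 1 or 3 of experiment 4, against 5.85% and 6.97%. It fell to 2 (4.44%) without WT replicate 1 of experiment 2, against 4.03%, and to 1 (2.22%) without experiment 2, against 2.3%. Leaving out experiment 1, 3 or 4 gave 8 (17.8%), 4 (8.89%) and 6 (13.3%), against 7.75%, 3.74% and 8.19% of all genes. Without the 3 libraries lowest in Pecam1 it was 2 (4.44%), against 3.61%.

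By direction alone, 40 of 45 members had a negative difference and 5 a positive one, against 64% of all genes with a negative difference. The median difference of members was -0.38 on the log2(TPM + 1) scale, against -0.11 for all genes, which leaves -0.26 relative to all genes, and 37 members lay below the all-gene median. Without WT replicate 2 of experiment 4, the library lowest in Pecam1, the relative value was -0.16 and 32 members lay below the all-gene median. The 5 positive differences belonged to Cenpf (0.23), Bub1 (0.20), Aurkb (0.18), Ncapg (0.17) and Mki67 (0.10). Without the 3 libraries lowest in the endothelial gene Pecam1, 34 members were negative and the median was -0.19, against -0.03 for all genes. Without the 4 libraries with the fewest genes above 0, an alternative chosen after seeing the data, 35 members were negative and the median was -0.21, against 0.11 for all genes. With libraries shifted to a common median, 37 members were negative, against 50.8% of all genes. The members vary together across libraries, so their count of negative differences is not a count of independent results.

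**Figure D3:**
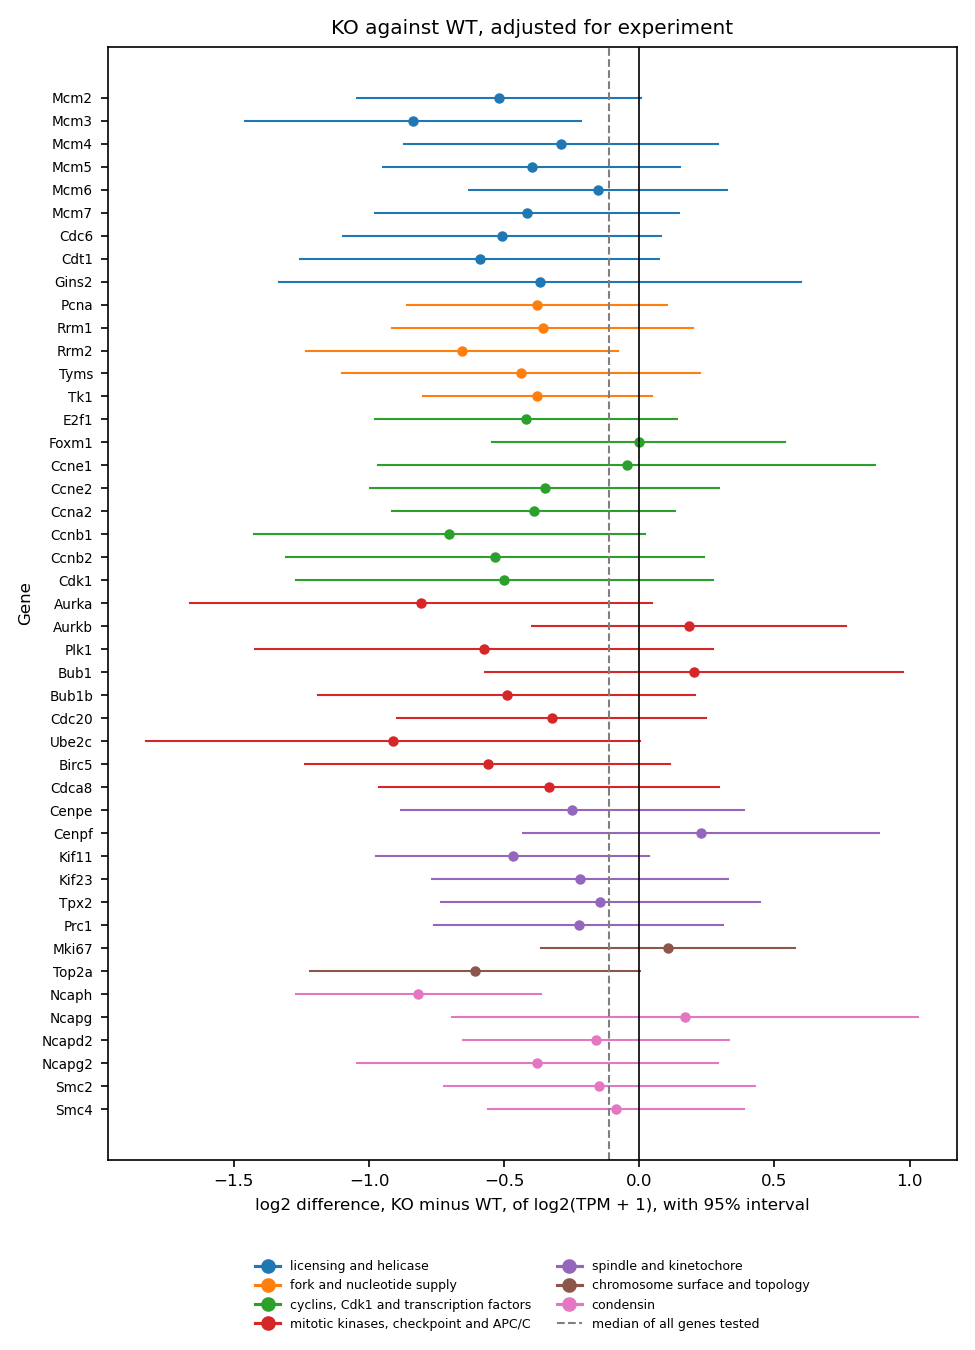
Points are log2 differences, KO minus WT, of log2(TPM + 1) adjusted for experiment, with 95% intervals, for the 45 genes coloured by role; the dashed line is the median of all genes tested, at -0.11. Intervals of Mcm3, Rrm2 and Ncaph end below 0 before adjustment for multiple testing, and those of the other genes include 0.

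The licensing and helicase genes were all negative, 9 of 9, with a median of -0.42. Mcm3, a subunit of the Mcm2-7 helicase (ENSMUSG00000041859, chr1:20802968-20820312 on the minus strand of GRCm38), had 7.17 TPM in the lowest, 33.0 in the median and 73.5 in the highest KO library, against 19.8, 50.2 and 71.2 TPM in WT libraries. In 8 of 10 KO libraries it lay below the WT median, while the highest KO library exceeded every WT library. The difference was -0.84 (SE 0.30, 95% interval -1.46 to -0.22), with an unadjusted limma p of 0.0103 and an adjusted p of 0.820. It was largest in experiment 2, where Mcm3 averaged 16.9 TPM in KO and 46.1 TPM in WT, and every KO library lay below every WT library. Mcm2, another helicase subunit and a target of the kinase that fires origins, averaged 22.7 ± 12.3 TPM over the 10 KO libraries and 30.0 ± 11.3 TPM over the 11 WT libraries (SD, as for the means that follow), a difference of -0.52 (SE 0.25, adjusted p 0.820). Mcm6, the most abundant of the 9, averaged 45.5 ± 18.4 TPM in KO and 50.2 ± 18.6 TPM in WT, and its difference of -0.15 (SE 0.23) was close to that of all genes. Subunits of a single ring thus spanned -0.84 to -0.15, and no test of the difference between them was run.

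The fork and nucleotide supply genes were negative in 5 of 5, with a median of -0.38. Rrm2, the cell cycle-regulated subunit of ribonucleotide reductase, had 4.74, 29.5 and 58.0 TPM in the lowest, median and highest KO library, against 15.1, 32.7 and 72.1 TPM in WT libraries. Its low end lay in experiment 4, where the KO libraries had 8.50 and 4.74 TPM and the WT libraries 15.1, 58.2 and 20.6 TPM. The 4.74 and 58.2 TPM came from KO and WT replicate 2, the libraries with the least TPM of the endothelial markers. The Rrm2 difference in experiment 4 was -1.89, where the median of all genes was -0.56 and 82.6% of all genes were negative. In experiment 2 Rrm2 averaged 25.9 TPM in KO and 43.8 TPM in WT. In experiments 1 and 3 the group means were nearly equal, at 38.5 TPM in KO and 38.4 TPM in WT and at 52.6 TPM in KO and 52.0 TPM in WT. The pooled difference was -0.66 (SE 0.28, 95% interval -1.23 to -0.08, unadjusted p 0.0275, adjusted p 0.820). Rrm2 was also the only member with an unadjusted p under 0.05 for genotype by experiment (0.042), and limma's adjusted p for it was 1.00. Tk1, thymidine kinase of the salvage pathway, had a difference of -0.38 (SE 0.21, adjusted p 0.822) and lay below the WT median in 8 of 10 KO libraries. Pcna averaged 119 ± 51.5 TPM in KO and 148 ± 42.1 TPM in WT, a difference of -0.38 (SE 0.23, adjusted p 0.836). Without the 4 libraries with the fewest genes above 0 the Pcna difference was -0.037, where the median of all genes was 0.11.

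Cyclins, Cdk1 and transcription factors were negative in 8 of 8, with a median of -0.40, and 6 lay below the all-gene median of -0.11. Ccnb1, cyclin B1, had 1.69, 12.7 and 21.0 TPM in the lowest, median and highest KO library, against 5.45, 14.8 and 31.2 TPM in WT libraries. The groups overlapped, and the difference was -0.70 (SE 0.35, adjusted p 0.820). Cdk1, its kinase partner and the most abundant of these genes, had medians of 52.4 TPM in KO and 52.7 TPM in WT, with a difference of -0.50 (SE 0.37, adjusted p 0.861). Its medians were alike while its means were 46.5 TPM in KO and 61.5 TPM in WT. E2f1, a transcription factor of replication genes, had medians of 10.5 TPM in KO and 11.1 TPM in WT and a difference of -0.42 with an unadjusted limma p of 0.134. Foxm1, a driver of mitotic genes chosen here after its values were seen, had a difference of -0.0020 (SE 0.26), with 0.82 in experiment 1 and -0.37 in experiment 2.

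The mitotic kinases, checkpoint and ubiquitin ligase genes had the lowest median of any role, -0.49, with 7 of 9 negative. Ube2c, the ubiquitin-conjugating enzyme of the anaphase-promoting complex, was listed at 0 in 1 KO library, KO replicate 3a of experiment 2, and had 11.1 TPM in the median and 46.7 TPM in the highest. In WT libraries it had 7.89, 17.8 and 87.9 TPM in the lowest, median and highest. The difference of -0.91 was the lowest of the 45 (SE 0.44, 95% interval -1.82 to 0.00, adjusted p 0.820). Ube2c also followed the experiments: its KO and WT means were 45.6 and 61.5 TPM in experiment 3 and 7.12 and 16.2 TPM in experiment 2. Aurka, the centrosomal aurora kinase, was listed at 0 in KO replicate 1 of experiment 4, with 10.3 TPM in the median and 15.2 TPM in the highest KO library. In WT libraries Aurka had 1.09, 16.7 and 24.4 TPM, so all 10 KO libraries lay below the WT median while the ranges still overlapped. Its difference was -0.81 (SE 0.41, adjusted p 0.820). Aurkb, the aurora kinase of the chromosomal passenger complex, went the other way in value, with 27.7 ± 15.6 TPM in KO and 22.5 ± 10.2 TPM in WT (adjusted p 0.951). Birc5, survivin, a partner of Aurkb in that complex, had a difference of -0.56 (SE 0.33, adjusted p 0.834).

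The spindle and kinetochore genes were closer to all genes, with a median of -0.22 and 5 of 6 negative. Kif11, the motor that pushes spindle poles apart, had 3.04, 14.0 and 17.8 TPM in the lowest, median and highest KO library, against 5.37, 16.9 and 21.6 TPM in WT libraries. The difference was -0.47 (SE 0.24, adjusted p 0.820). Its low values belonged to experiment 4, where it averaged 3.47 TPM in KO and 11.9 TPM in WT. The Kif11 difference there was -1.33, where the median of all genes was -0.56. Its highest WT value, 21.6 TPM, came from WT replicate 2 of that experiment, the library lowest in endothelial markers. Prc1, which bundles the midzone of the spindle, had 11.0, 33.5 and 97.5 TPM in KO libraries, against 7.61, 36.2 and 51.7 TPM in WT libraries, and a difference of -0.22 (adjusted p 0.925). Its highest value, in KO replicate 3b of experiment 2, stood far above the rest.

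Mki67 and Top2a, both read as labels of proliferation, parted in value. Mki67, which coats mitotic chromosomes, had 10.3, 40.7 and 70.7 TPM in the lowest, median and highest KO library, against 21.5, 36.9 and 57.3 TPM in WT libraries. Only 3 of 10 KO libraries lay below the WT median. Its difference was 0.10 (SE 0.23, 95% interval -0.37 to 0.57, adjusted p 0.973), and by experiment it was 0.45, 0.25, 0.27 and -0.59. Top2a, which untangles sister chromatids, had 14.7, 63.2 and 92.4 TPM in KO libraries, against 14.7, 85.3 and 145 TPM in WT libraries. There 8 of 10 KO libraries lay below the WT median, and the difference was -0.61 (SE 0.29, adjusted p 0.820). Neither gene passed the test, and the difference between their changes was not tested.

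Condensin is a ring of the ATPases Smc2 and Smc4 closed by a kleisin, Ncaph in condensin I and Ncaph2 in condensin II, with HEAT-repeat subunits such as Ncapg and Ncapd2 on condensin I and Ncapg2 on condensin II. Ncaph (ENSMUSG00000034906, chr2:127103809-127133954 on the minus strand of GRCm38) had the smallest p of the 45. In KO libraries it had 14.7 and 8.51 TPM in experiment 1, 14.5, 24.5, 15.1 and 22.1 TPM in experiment 2, 21.1 and 15.5 TPM in experiment 3 and 5.79 and 3.69 TPM in experiment 4. In WT libraries it had 18.1, 20.8 and 23.0 TPM in experiment 1, 21.3, 24.3 and 33.2 TPM in experiment 2, 33.8 and 23.9 TPM in experiment 3 and 10.4, 21.4 and 14.9 TPM in experiment 4. Every KO library lay below every WT library in experiments 1, 3 and 4, and the groups overlapped in experiment 2. Ncaph was the only member so separated in at least 3 experiments, and 0.37% of all genes were, a count made after its values were seen. If KO replicate 3b, with 22.1 TPM, belonged to experiment 4, it would overlap the WT libraries there.

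The pooled Ncaph difference was -0.82 (SE 0.22, 95% interval -1.27 to -0.37, unadjusted p 0.00107), and limma's adjusted p was 0.820. It was negative in each experiment, at -0.82, -0.45, -0.62 and -1.50. Over 41 alternatives it stayed at or below -0.61, with adjusted p-values of 0.0899, under weights per library, to 0.999. The rest of the ring lay closer to all genes in value, and the difference from Ncaph was not tested. Smc4 averaged 82.0 ± 37.5 TPM in KO and 75.5 ± 27.3 TPM in WT, with a difference of -0.09 (SE 0.23, adjusted p 0.976) whose sign changed under several alternatives, with library scaling among them. Smc2 averaged 22.8 ± 10.6 TPM in KO and 23.2 ± 6.84 TPM in WT, and Ncapd2 averaged 66.8 ± 32.2 TPM in KO and 66.9 ± 21.2 TPM in WT. Ncapg averaged 16.0 ± 11.0 TPM in KO and 13.7 ± 8.87 TPM in WT, and Ncapg2 had a difference of -0.38 with an unadjusted p of 0.256. The median of the 6 condensin genes was -0.15, against -0.11 for all genes, and it was 0.04 without the 3 libraries lowest in Pecam1. Ncaph2, the condensin II kleisin, is no member but was among the related genes with the smallest p. It had 13.6, 37.6 and 64.5 TPM in the lowest, median and highest KO library, against 38.9, 54.5 and 87.8 TPM in WT libraries. The Ncaph2 difference was -0.65 (SE 0.24, adjusted p 0.820). With weights per library it was -0.11, where the median of all genes was 0.03.

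**Figure D4:**
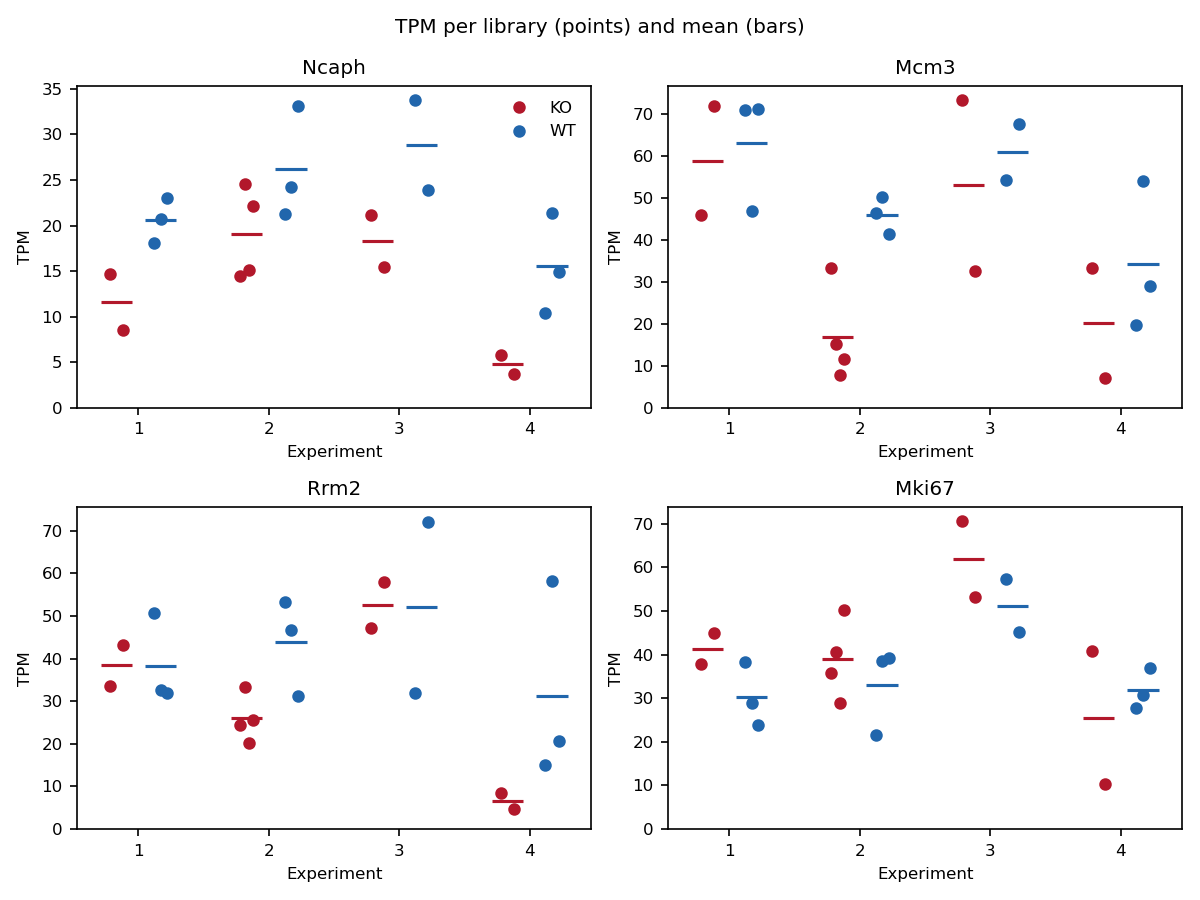
Each point is the TPM of 1 library, KO in red left of WT in blue within each of the 4 experiments, and bars are group means, for Ncaph, Mcm3, Rrm2 and Mki67. For Ncaph every KO point lies below every WT point in experiments 1, 3 and 4, while for Rrm2 the KO and WT means are nearly equal in experiments 1 and 3 and apart in experiments 2 and 4.

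The experiments did not give one picture. Members with a negative difference numbered 19, 39, 31 and 39 of 45 in experiments 1 to 4, against 27.5%, 64.6%, 43.7% and 82.6% of all genes. The median member difference was 0.03, -0.59, -0.19 and -0.64 in that order, against 0.30, -0.18, 0.08 and -0.56 for all genes. The member median was below that of all genes in each experiment, and nearest to it in experiment 4. In all, 14 members were negative in each of the 4 experiments. The share of all genes negative in each was not computed, so this count has no background to be read against. No member passed limma's test of genotype by experiment, which no gene passed (0%), and 1 of 45 members had an unadjusted p under 0.05, against 3.84% of all genes.

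Experiment 2 separated the most members. There every KO library lay below every WT library for 16 members (35.6%), against 4.91% of all genes, a count made after the values were seen. These were Mcm2, Mcm3, Mcm7, Cdc6, Cdt1, Rrm1, Ccna2, Ccnb1, Ccnb2, Aurka, Plk1, Bub1b, Cenpe, Kif11, Kif23 and Top2a, from origin licensing to the spindle, and no condensin gene. Without KO replicates 3a and 3b it was 21 members (46.7%), against 9.1% of all genes. In experiments 1, 3 and 4 the count was 3, 2 and 4 members (6.67%, 4.44% and 8.89%), against 3.35%, 11.8% and 19.1% of all genes. The share of members was thus below that of all genes in experiments 3 and 4. Within experiment 2 the mean log2(TPM + 1) of the 45 genes was 4.31, 4.27, 3.77 and 4.00 in KO libraries, against 4.69, 4.71 and 4.63 in WT libraries. KO replicates 3a and 3b, with the fewest genes above 0 of all libraries, were the lowest of these. Measured against the median gene of each library, the KO libraries of experiment 2 lay at -0.26 to 0.019 and the WT libraries at 0.11 to 0.60. In the same experiment, WT replicate 1 was among the 3 libraries lowest in Pecam1.

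Levels also differed between experiments irrespective of genotype. In limma's test between experiments 12 members passed (26.7%), against 29.1% of all genes, and the share of members is near that background. These were Mcm2, Mcm3, Rrm2, Tk1, Foxm1, Ccnb2, Ube2c, Kif11, Prc1, Top2a, Ncaph and Smc4. Experiment 3 was the highest for the 45 genes together, with a mean log2(TPM + 1) of 4.88 ± 0.31 (SD, n = 4), and experiment 4 the lowest, with 3.99 ± 0.73 (SD, n = 5). Measured against the median gene of each library, experiment 3 was still the highest, at 0.59, while experiment 4 lay at 0.28, above experiment 1 at 0.10 and experiment 2 at 0.057. The count of members that passed between experiments was 4 with libraries shifted to a common median. It was also 4 with TPM rescaled without abundant noncoding and mitochondrial RNA. The share of all genes under these settings is not given here. Ube2c, for example, had 0.00 to 19.7 TPM in libraries of experiment 2 and 35.1 to 87.9 TPM in those of experiment 3.

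A wider list of 91 cell cycle genes, which holds no member, lay in the same direction with a smaller median. Of these, 90 passed the filter and 73 had a negative difference (81.1%), against 64% of all genes, with a median of -0.25. None passed the adjusted test, and 3 were lower at an unadjusted p under 0.05 (Dut, Gins4 and Ncaph2), which is 3.33% of the 90, against 4.93% of all genes lower at that p. Dut, which removes dUTP from the nucleotide pool, was listed at 0 in 2 KO libraries and had 8.68 TPM in the median and 34.1 TPM in the highest, against 6.46, 24.5 and 46.9 TPM in WT libraries. Its difference was -1.79 (SE 0.57, adjusted p 0.820), and it ran from -2.47 with a pseudocount of 0.1 TPM to -0.32 with weights per library. Gins4, a partner of Gins2 in the helicase-activating complex, had 0.539, 6.83 and 19.9 TPM in KO libraries, against 6.33, 15.0 and 29.8 TPM in WT libraries, and a difference of -0.93 (SE 0.32, adjusted p 0.820). Kif20a, a motor of cytokinesis, had a difference of -0.65 (SE 0.32, adjusted p 0.820).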

How the data were processed

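Total RNA of CD31+ cells sorted from E0771.lmb tumours was sequenced as stranded, ribosomal RNA-depleted libraries with 150-base paired ends, per the labels' protocols. The authors deposited 1 table of TPM values (reads per transcript length, with the same total in every library) for 45706 genes in 21 libraries, on GRCm38 per the submitters' processing notes. An aligner or counter for the deposited values is not given in the sources used here. Depth per library cannot be read from TPM, so counting intervals are left out. A few very abundant RNAs lower the TPM of all other genes in a library, and the 20 most abundant genes took 19.7% to 71.1% of it.

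Libraries were assigned by column name. The pair of columns headed KO replicate 3 of experiment 2 was kept in experiment 2 as 3a and 3b, and 3b, like experiment 4, is written with more decimals. Values were taken as log2(TPM + 1). Genes that reached 1 TPM in 10 or more libraries were fitted with limma 3.58.1 in R 4.3.3. The fit had experiment and genotype as terms, a trended robust prior and Benjamini-Hochberg adjustment at 0.05. It was also run on simulated data with noise independent between genes and libraries. That run could not cover shared tumours, libraries of unequal quality or genes that vary together. Shb was tested by exact permutation within experiments (21000 arrangements). Alternatives changed the pseudocount, filter, scaling, weights, block, place of the doubled columns and the libraries used. The members and lists were chosen with earlier results of these data known. The text describes, per role, the 2 members with the smallest p and the most abundant one, and of the wider list the 4 with the smallest p; a few others, named as such or to complete a count, were chosen after their values were seen. Promoters are RefSeq windows of GRCm38.p6, and gene coordinates are from the GENCODE annotation of GRCm38.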

Additional observations from a re-analysis of the deposited data

Results flagged for a closer look

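For each named member and the mean of the 45 genes, all 10 KO libraries and the 4 KO libraries of experiment 2 were examined. WT libraries and other experiments on their own were not. Of these 40 groups, 6 held a library far from the others, where chance gives about 1 in 20. The groups overlap, so they are not independent. Values in this section are the gap to the nearest library divided by the whole range of the group, both taken on log2(TPM + 1), and TPM is given beside them. Among the 4 KO libraries of experiment 2, KO replicate 3b was low for Ccnb1 (4.74 TPM, 0.966 of the range) and for E2f1 (5.07 TPM, 0.889) and high for Prc1 (97.5 TPM, 0.837). KO replicate 2 was low for Birc5 in the same group (6.27 TPM, 0.857). Among all 10 KO libraries, Aurka was listed at 0 in replicate 1 of experiment 4 (0.634), and Mki67 was low in replicate 2 of experiment 4 (10.3 TPM, 0.529). KO replicate 3b supplied 3 of the 6, and it is one of the columns that share a header. It lies in every group examined, so the count does not set it apart from WT libraries.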

How the results depend on the processing

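No member passed KO against WT under any of 41 alternatives, and no member passed genotype by experiment where that test was run (neither it nor the test between experiments was run with the replicate block or without the experiment term). The exact test of Shb was not run with weights per library. The median member difference stayed below that of all genes in all 41. The number of genes called, 1 as reported, was 2 with a common median, 2 with quantile normalization, 8 with weights per library, and 0 with the replicate block, without experiment 1 and without experiment 2. Members called between experiments, 12 as reported, numbered 6 with no filter, 4 with a common median, 5 with quantile normalization, 4 with rescaled TPM, 37 with weights per library, 5 with the first doubled column in experiment 4, 0 without experiment 2 and 5 without experiment 4. Leaving out single libraries gave 6 (without KO replicate 1 of experiment 3) to 16, with 7 without KO replicate 2 and 7 without WT replicate 1 of experiment 4. The share of all genes that passed is not given beside these counts, so they do not set members apart from other genes. The cause was not tested.

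The Shb difference missed the threshold in the exact permutation test with the replicate block (-0.77, p 0.112), without both doubled columns (-0.71, p 0.0688), without experiment 2 (-0.57, p 0.227), without experiment 4 (-0.62, p 0.165) and without the 3 libraries lowest in Pecam1 (-0.82, p 0.0748). Smc4 turned positive with a common median (0.020), weights per library (0.17), no experiment term (0.060), either doubled column in experiment 4 (0.043), without experiment 4 (0.17) and without the 3 libraries lowest in Pecam1 (0.067), and ranged from -0.18 to 0.028 when single libraries were left out (positive without KO replicate 2 or WT replicate 2 of experiment 4). Mki67 was -0.0019 without experiment 1, and Mcm6 was 0.040 without experiment 2.

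Same-numbered samples showed no common pairing: over 8 pairs, correlations of their deviations from group means ran from -0.20 to 0.36. The 8 values are not independent, because deviations in a group of 2 libraries mirror each other, and both pairs of experiment 3 gave -0.20. Both pairs of experiment 4 were positive (0.32 and 0.36), so pairing was not settled. With the replicate block 42 members were negative, with a median of -0.39 and 7 at an unadjusted p under 0.05. The depth behind TPM is unknown, and samples that share a tumour are not marked.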
